A study of Mus musculus with 12 samples.

Results

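The extracellular matrix around cells holds more than collagen: fibronectin, fibrillin microfibrils and elastin, small leucine-rich proteoglycans that sit on collagen fibrils, enzymes that cross-link them, matricellular proteins that signal from the matrix, and the laminins, nidogens and perlecan of the basement membrane. In a solid tumor most of these proteins are known as products of fibroblasts, while tumor cells and vessel walls make some of them, so a list of their genes shows which matrix RNA melanoma cells hold in culture and which is seen only in cells taken from a tumor. The genes described here are 37 noncollagen matrix and fibroblast genes, chosen by symbol through the Ensembl identifiers of the deposited count table, and they are 37 of the 54232 genes in it. They comprise 2 fibroblast surface proteins, 7 small leucine-rich proteoglycans, 4 fibulins, 6 genes of elastic fibres and microfibrils, 4 of cross-linking and collagen processing, 8 matricellular proteins and associated glycoproteins, fibronectin and versican, and 4 basement membrane genes.

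RNA was sequenced from B16F10, a melanoma cell line of C57BL/6 mice, in 12 libraries of 4 groups with 3 libraries each. WT libraries came from untreated cells in culture. Relapsed libraries came from the lines ITF1, ITM and Rel, each grown in culture to confluency from B16F10 cells sorted out of a subcutaneous tumor that had come back after immunotherapy. Tumor libraries (Tumor 1, Tumor 3 and Tumor 4) came from B16F10 cells sorted out of such relapsed tumors, with the RNA extracted at once and no culture in between. Lyso libraries came from cultured B16F10 cells incubated with lysosome-like granules derived from T cells, for 48 hr by the sample labels, while the methods of the study give a shorter time. The labels give an age of 6 weeks and the strain for every sample, which for cultured cells can only describe the mice of the experiment. The WT, Lyso and Relapsed libraries are together called cultured here, and nothing in the labels says which libraries came from separate mice or cultures, so p-values measure the spread between these libraries.

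Counts on genes ranged from 1667398 to 16402629 per library, with WT 1, WT 2 and the Tumor libraries shallow (up to 5049496) and the other 7 deep (at least 10895611). Levels are given as CPM, the usual unit of a gene's counts relative to the TMM-scaled total of its library, and a library was treated as holding a gene when it had over 3 counts, which is 1.70 CPM in WT 1 and 0.177 CPM in WT 3 (counting error only). Melanocyte markers, which define the labelled cell type, summed to 24059 ± 4314 CPM in WT and 21729 ± 1101 CPM in Tumor (SD, n = 3). Between Tumor and WT 0 of 9 were called different, where 8.56% of all genes tested were called higher and 2.2% lower. Against Relapsed 1 of the 9 was called higher and 2 lower in Tumor (8.36% and 2.31% of all genes), and against Lyso 1 lower (4.14%). The sum in each Tumor library (20494 to 22610 CPM) was below that in each Relapsed (23135 to 37294 CPM) and each Lyso library (29736 to 30511 CPM). Dct, an enzyme of melanin synthesis, was at 6776 ± 1175 CPM in WT and 7413 ± 183 CPM in Tumor (SD, n = 3).

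Of the 37 genes, 23 had a promoter window in the RefSeq tables for GRCm38.p6 (29 windows, each 250 bases before to 50 after a transcript start). Shown here are the 200 bases before the start for the 3 genes with an EGR site (GCGNGGGCG, either strand) in that stretch, and for Postn, which has a TATA box (TATAAA) at the usual distance from its start. The EGR site is shown because EGR1 is a transcription factor of interest in these cells. Capitals mark that site, and each stretch is written 5′ to 3′ on the strand of its gene. Tnc (tenascin C) is from chr4:64047016-64047215, minus strand, Fbln1 (fibulin 1) from chr15:85205808-85206007, plus strand, Lamb1 (laminin beta 1) from chr12:31265093-31265292, plus strand, and Postn (periostin) from chr3:54360907-54361106, plus strand.
Tnc: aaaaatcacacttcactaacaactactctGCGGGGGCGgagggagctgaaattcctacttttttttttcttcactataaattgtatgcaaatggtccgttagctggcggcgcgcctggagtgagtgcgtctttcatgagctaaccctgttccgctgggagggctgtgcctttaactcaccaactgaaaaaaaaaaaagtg
Fbln1: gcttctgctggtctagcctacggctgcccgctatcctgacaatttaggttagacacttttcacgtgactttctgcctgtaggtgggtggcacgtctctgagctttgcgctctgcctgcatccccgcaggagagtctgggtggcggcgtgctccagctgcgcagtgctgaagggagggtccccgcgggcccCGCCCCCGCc
Lamb1: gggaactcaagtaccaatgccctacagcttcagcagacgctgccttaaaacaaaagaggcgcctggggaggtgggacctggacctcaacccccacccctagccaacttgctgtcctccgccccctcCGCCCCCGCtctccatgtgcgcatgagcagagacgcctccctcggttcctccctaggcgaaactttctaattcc
Postn: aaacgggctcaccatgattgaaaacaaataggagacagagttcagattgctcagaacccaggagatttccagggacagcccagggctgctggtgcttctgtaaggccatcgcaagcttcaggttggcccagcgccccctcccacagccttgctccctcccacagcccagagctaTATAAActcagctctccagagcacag

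These promoters belong to genes with unlike levels: Tnc had at most 1 count in a cultured library, Postn was low in culture, and Fbln1 and Lamb1 were over the floor in every library. In the 29 windows an EGR site was found in 4 (3 genes), against 5.55% of all 32851 windows. A GC box (GGGCGG), which can overlap an EGR site, was in 16 (13 genes) against 35.7% of all windows, an AP-1 site (TGANTCA) in 2 (Efemp1 and Tnxb) against 7.81%, and a STAT site (TTCNNNGAA) in 0 against 8.3%. A TATA box on either strand was in 6 (Aspn, Ogn, Postn, Thbs2 and Tnc) against 13.6%. These are matches of letters in a short window and say nothing of binding.

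In culture, B16F10 cells held a part of this matrix list. Over 3 counts in each of the 9 cultured libraries were found for 14 genes: Prelp, Fbln1, Efemp2, Emilin1, Loxl2, Pcolce, Postn, Sparc, Thbs1, Matn2, Fn1, Nid1, Hspg2 and Lamb1. Another 13 passed that floor in some cultured libraries, and 10 passed it in none: Dcn, Fmod, Aspn, Fbln2, Efemp1, Mfap4, Mfap5, Loxl1, Tnc and Cilp. Because Tumor is where the low genes have counts, 18 of the 37 passed the filter on low counts only through the Tumor libraries. Such genes had to differ there, while 19 passed the filter with the cultured libraries alone. The 18 are Aspn, Bgn, Cilp, Dcn, Efemp1, Eln, Fap, Fbln2, Fmod, Lox, Loxl1, Lum, Mfap2, Mfap4, Mfap5, Ogn, Tnc and Tnxb. Selection fixed their direction in Tumor, so their p-values for Tumor are given as description only.

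**Figure D1:**
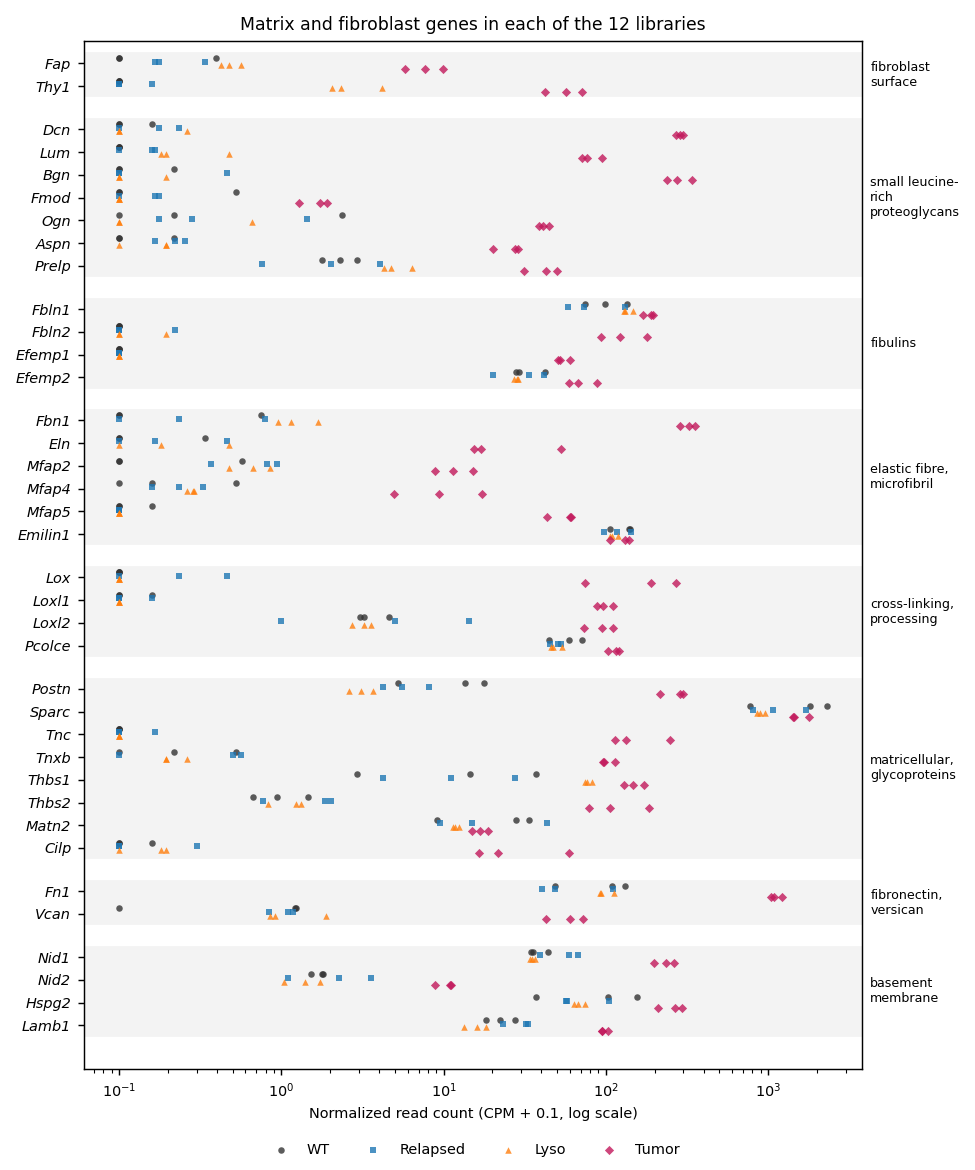
Normalized read counts (CPM + 0.1, log axis) of the 37 genes in each of the 12 libraries, 1 point per library, with the genes in rows by role and the groups by color. Tumor points lie to the right of all WT points for 34 genes, while those of Emilin1, Sparc and Matn2 overlap WT.

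Per length of transcript (TPM, CPM divided by the exonic bases of the gene and rescaled), Sparc stood first in all 4 groups. Sparc, a secreted glycoprotein that binds collagen, made up 80.1% of the summed TPM of the 37 genes in WT, 76.5% in Relapsed, 67.7% in Lyso and 34.7% in Tumor. Emilin1 (an elastin microfibril interfacer) and Fbln1 came next in WT, at 82.7 ± 11.1 and 74.4 ± 20.1 TPM (SD, n = 3), and these do not differ beyond their spread. In Tumor, Fn1 (fibronectin) was in the next place at 306 ± 28.3 TPM, followed by Dcn (decorin) at 157 ± 6.93, Bgn (biglycan) at 149 ± 28.2 and Fbln1 at 135 ± 8.33 TPM (SD, n = 3), and Dcn and Bgn do not differ beyond their spread. In WT, Dcn was at 0.0108 ± 0.0188 and Bgn at 0.0207 ± 0.0359 TPM (SD, n = 3).

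**Figure D2:**
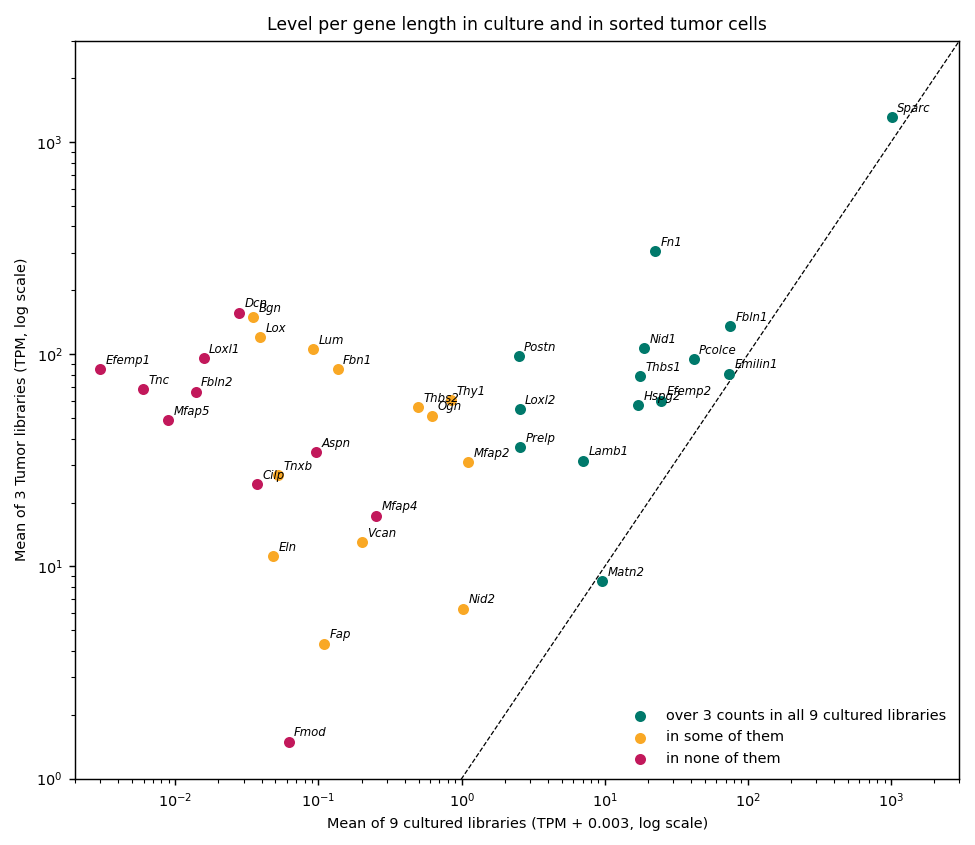
Mean level per gene length in the 9 cultured libraries (TPM + 0.003, log axis) against the mean of the 3 Tumor libraries (TPM, log axis), 1 point per gene, colored by the number of cultured libraries with over 3 counts; the dashed line marks equal levels. Sparc, Emilin1 and Matn2 lie near the line, and the genes found in no cultured library, such as Efemp1 and Tnc, lie at the left far above it.

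The summed level of the 37 genes was 2275 ± 946 CPM in WT, 1764 ± 477 in Relapsed, 1551 ± 79.6 in Lyso and 6474 ± 724 in Tumor (SD, n = 3). Without Sparc these sums were 641 ± 160.3, 571 ± 28.1, 651 ± 22.9 and 4924 ± 534 CPM (SD, n = 3). The 14 genes found in all cultured libraries summed to 2270.1 ± 946 CPM in WT and 4311 ± 398 in Tumor (SD, n = 3). The 10 found in none are low in culture by that choice, and in the Tumor libraries they summed to 773 to 981 CPM.

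Against WT, 32 of the 37 genes were called higher in Tumor and 0 lower, where 8.56% of the 14924 genes tested were called higher and 2.2% lower. A call is an adjusted p under 0.05 with an absolute log2 fold change over 1 in edgeR's quasi-likelihood test, fitted to all 12 libraries. Of these 32, 18 are the genes that passed the filter only through Tumor and had to differ. The other calls are 14 of the 19 genes that pass it with the cultured libraries alone. The 8.56% is over all genes tested, also those that passed only through Tumor, and no share under the cultured filter was counted. The 5 genes not called were Fbln1, Pcolce, Emilin1, Sparc and Matn2. At an unadjusted p under 0.05 stood 34 of the 37 (91.9%, against 32.1% of all genes). In 34 every Tumor library was above every WT library, against 21% of all genes, while 0 lay wholly below (15.1% of all genes). These counts over the 37 also hold the 18 genes that had to differ, so the shares of all genes are no fair background for them. The median log2 fold change was 2.75 over those 19 genes and 0.00 over all genes tested. Against Relapsed 34 genes were called higher and 0 lower (8.36% and 2.31% of all genes), and against Lyso 32 and 0 (8.78% and 4.14%), of which 16 and 14 higher calls were among the 19 genes. Every Tumor library was above every library of Relapsed for 34 genes (20.1% of all genes) and of Lyso for 36 (28%), and below for 0 (17.4% and 26.8%). Here too the 18 genes that had to differ are counted. These 3 comparisons share the Tumor libraries. In bulk RNA, more cells of a type and more RNA per cell cannot be told apart.

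**Figure D3:**
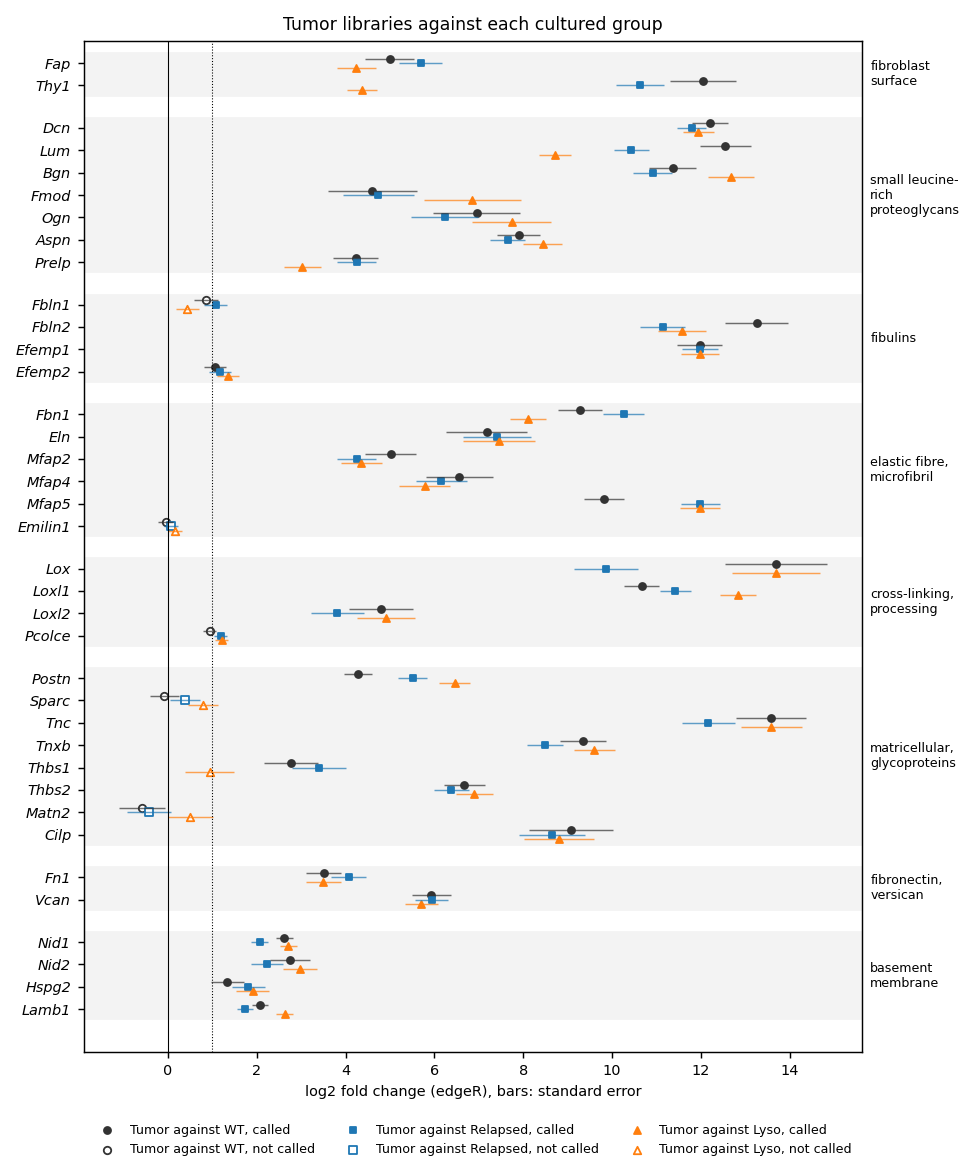
Log2 fold changes of the 37 genes in Tumor against WT, Relapsed and Lyso (edgeR), with bars for the standard error, filled symbols for genes called and open symbols for those not called; the dotted line marks a log2 fold change of 1. For genes at or near 0 in culture the fitted size depends on the small count that the method adds. Open symbols in all 3 comparisons belong to Emilin1, Sparc and Matn2.

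All 7 small leucine-rich proteoglycans, which bind collagen fibrils and set their spacing, were called higher in Tumor than in WT (8.56% of all genes tested). Of these only Prelp passed the filter on low counts with the cultured libraries alone. Dcn, Lum, Bgn, Fmod, Ogn and Aspn passed it only through Tumor and had to differ. Dcn (ENSMUSG00000019929, chromosome 10, 97479609 to 97518143 on GRCm38) was at 0, 0 and 0.059 CPM in WT, 0.0768, 0 and 0.134 in ITF1, ITM and Rel, 0, 0 and 0.162 in Lyso, and 271, 300.1 and 286 CPM in Tumor 1, 3 and 4. No cultured library held over 2 counts of it, and the 3 Tumor libraries lay close together. Its 3540 counts in Tumor against 1 in WT give a ratio of 6074 (95% exact counting interval 1089 to 239985), with an edgeR adjusted p of 5.74e-09. Bgn was at 0, 0 and 0.118 CPM in WT and at 339, 273 and 239 CPM in Tumor (ratio 2929, interval 810.2 to 24195, edgeR adjusted p = 3.4e-08). The single cultured library with more than 2 counts of Bgn was ITM, with 6.

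Lum (lumican) was at 0 counts in every WT library and at 71.5, 76.1 and 94.2 CPM in Tumor, at least 571-fold higher over the group's floor (edgeR adjusted p = 1.98e-07). Ogn (osteoglycin) was at 38.7, 40.7 and 44.3 CPM in Tumor and at 2.26, 0 and 0.118 CPM in WT, where the highest value is 4 counts in the shallowest library. Rel also held 20 counts of it (1.34 CPM), and no cultured library reached the Tumor values. Aspn (asporin) was at 28.6, 27.4 and 20.01 CPM in Tumor against 2 counts over the WT libraries. Prelp was the member of this family that cultured cells held: 2.23 ± 0.572 CPM in WT, 2.18 ± 1.66 in Relapsed, 5.06 ± 1.11 in Lyso and 41.2 ± 9.34 in Tumor (SD, n = 3), a log2 fold change of 4.23 ± 0.51 (SE) against WT (edgeR adjusted p = 0.000108). Fmod (fibromodulin) was the lowest of the family per length, at 1.49 ± 0.322 TPM in Tumor (SD, n = 3), with 5, 9 and 5 counts in the Tumor libraries. Its call against WT (edgeR adjusted p = 0.00894) was lost without WT 3, at a log2 fold change of 2.61 (edgeR adjusted p = 0.163). Of the bases in its exons, Prelp shares 9.68% with a gene on the opposite strand, and the strand setting of the counts is not given in the sources used here.

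Several of these genes lie side by side, and their neighbours, chosen by position after values were seen, differ from them. Lum lies on chromosome 10 (97565128 to 97572703) next to Dcn, and in the same cluster Kera had 0 counts in all 12 libraries and Epyc at most 2. Aspn (chromosome 13, 49544443 to 49567565) and Ogn (49608046 to 49624501) flank Omd, with 1, 5 and 3 counts in Tumor, and lie beside Ecm2, at 5.201, 3.22 and 4.94 CPM in Tumor (log2 fold change against WT 3.63 ± 0.65 SE, edgeR adjusted p = 0.00196). Thus in each cluster some genes had high counts in Tumor and others were at or near the floor.

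The 4 fibulins, glycoproteins that link elastic fibres and basement membranes, split by their level in culture. Fbln2 was at 0 counts in WT and at 179.8, 122 and 93.7 CPM in Tumor, at least 892-fold higher (edgeR adjusted p = 6.06e-07). Efemp1 (fibulin 3) had 0 counts in all 9 cultured libraries, which hold between 1667398 and 16402629 counts, and 160, 299 and 214 counts in Tumor, or 52.0, 60.2 and 50.4 CPM. It was at least 385-fold higher than the WT floor and at least 815-fold higher than the Relapsed floor (edgeR adjusted p = 1.43e-05 and 3.64e-06). Both genes were thus at or under 2 counts per library in culture, and both passed the filter only through Tumor.

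Efemp2 (fibulin 4) and Fbln1 were expressed in culture and moved less. Efemp2 was at 28.9, 27.9 and 41.9 CPM in WT and 87.4, 67.4 and 59.1 CPM in Tumor, a log2 fold change of 1.07 ± 0.25 (SE, edgeR adjusted p = 0.00998). It ranged from 0.90 to 1.33 with 1 library left out, and the call was lost without WT 1, WT 2 or Tumor 1. Against Relapsed its call (1.17 ± 0.24 SE, edgeR adjusted p = 0.00405) was lost without ITM, at 0.92. Fbln1 was at 99.1, 134 and 73.8 CPM in WT, 58.7, 131 and 73.0 in ITF1, ITM and Rel, 148, 132 and 129 in Lyso and 169.7, 194 and 189 in Tumor. All Tumor values of Fbln1 lie above all cultured values, yet its log2 fold change of 0.86 ± 0.27 (SE) against WT was under the minimum (edgeR adjusted p = 0.0403). Without WT 2 it was 1.11 and called (edgeR adjusted p = 0.0226). Against Relapsed Fbln1 was called (1.07 ± 0.26 SE, edgeR adjusted p = 0.0121), which was lost without ITF1 or Rel, at values down to 0.85.

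Among elastic fibre and microfibril genes, 5 of 6 were called higher in Tumor than in WT (8.56% of all genes tested). Only Fbn1 and Emilin1 passed the filter on low counts with the cultured libraries alone, and of these Fbn1 was called. Eln, Mfap2, Mfap4 and Mfap5 passed it only through Tumor and had to differ. Fbn1 (fibrillin 1, the backbone of microfibrils) was at 0, 0 and 0.649 CPM in WT and 352, 326 and 287 CPM in Tumor (log2 fold change 9.29 ± 0.50 SE, edgeR adjusted p = 1.13e-07), and 20.14% of its exonic bases lie opposite another gene. In Lyso it was at 0.849, 1.58 and 1.05 CPM, above every WT library but not called (edgeR adjusted p = 0.41). Mfap5, a microfibril-associated glycoprotein, had 1 count in all 9 cultured libraries together and was at 60.5, 60.0 and 43.5 CPM in Tumor (edgeR adjusted p = 1.64e-06 against WT). Mfap2 was at 8.78, 11.3 and 15.1 CPM in Tumor and up to 0.845 CPM in culture. Mfap4 was at 4.88, 9.26 and 17.2 CPM and Eln (elastin) at 16.9, 15.3 and 53.0 CPM in Tumor, and both were under 0.5 CPM in each cultured library. Emilin1 was the exception: 105, 141 and 139 CPM in WT and 138, 130.2 and 106 CPM in Tumor, a log2 fold change of -0.05 ± 0.16 (SE, edgeR adjusted p = 0.877).

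Of the genes that cross-link and process collagen, Lox, the enzyme lysyl oxidase, was at 0 counts in WT and in Lyso and at 271, 189.8 and 74.1 CPM in Tumor. That is at least 1197-fold above the WT floor (edgeR adjusted p = 8.15e-05), with a wide spread between Tumor libraries. Among the relapsed lines ITM held 6 counts and Rel 2. Its relative Loxl1 was at 111, 96.2 and 88.5 CPM in Tumor with 1 count in WT (ratio 2050, 95% exact counting interval 367 to 81056). Lox and Loxl1 passed the filter only through Tumor. Loxl2 was expressed in culture, at 4.53, 2.96 and 3.13 CPM in WT and at 14.3, 0.899 and 4.89 CPM in ITF1, ITM and Rel, so that the relapsed lines spanned the WT values on both sides. In Tumor it was at 110.2, 95.01 and 73.4 CPM, a log2 fold change of 4.80 ± 0.72 (SE) against WT (edgeR adjusted p = 0.000563). Pcolce, which enhances the removal of procollagen ends, was at 44.7, 71.4 and 59.2 CPM in WT and 120.3, 103 and 116 CPM in Tumor. Its log2 fold change of 0.94 ± 0.15 (SE, edgeR adjusted p = 0.000909) was under the minimum, and without WT 2 or Tumor 3 it was up to 1.08 and called. Against Relapsed (1.18 ± 0.15 SE, edgeR adjusted p = 9.58e-05) and Lyso (1.21 ± 0.15 SE, edgeR adjusted p = 8.84e-05) it was called.

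Matricellular and associated glycoproteins gave the widest range of patterns, with 6 of 8 called higher in Tumor than in WT (8.56% of all genes tested). Of the 6, Tnc, Tnxb and Cilp passed the filter on low counts only through Tumor and had to differ. Postn, Thbs1 and Thbs2 passed it with the cultured libraries alone. Tnc, a glycoprotein of wounds and tumor stroma, had 1 count in all 9 cultured libraries together and was at 249.6, 134 and 113 CPM in Tumor, at least 1094-fold above the WT floor (edgeR adjusted p = 8.13e-06). Tnxb (tenascin X) was at 95.9, 114 and 97.2 CPM in Tumor and up to 0.461 CPM in culture. Thbs2 (thrombospondin 2) was at 0.566, 0.844 and 1.36 CPM in WT and at 184, 105 and 78.9 CPM in Tumor, a log2 fold change of 6.67 ± 0.46 (SE, edgeR adjusted p = 9.11e-07). These genes did not overlap between Tumor and any cultured library. Cilp, a glycoprotein of cartilage and heart matrix, was at 21.5, 16.5 and 59.3 CPM in Tumor and at 1 count in WT.

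Postn was low in culture and high in Tumor, with 5.09, 13.5 and 17.5 CPM in WT and 299.7, 214 and 285 CPM in Tumor (log2 fold change 4.29 ± 0.32 SE, edgeR adjusted p = 1.72e-06). With 1 library left out the log2 fold change of Postn stayed between 4.04 and 4.77. Thbs1 (thrombospondin 1), at 2.83, 14.4 and 36.8 CPM in WT, was at 171, 129 and 147 CPM in Tumor (2.78 ± 0.61 SE, edgeR adjusted p = 0.00686). Against WT 3 as the only control Thbs1 was at 1.99 and not called. Sparc, by contrast, was at 769, 1824 and 2309 CPM in WT, 1708, 804 and 1068 in ITF1, ITM and Rel, 962, 848 and 889 in Lyso, and 1776, 1449.8 and 1426 CPM in Tumor. Its WT values span those of every other group, and its log2 fold change against WT was -0.08 ± 0.34 (SE, edgeR adjusted p = 0.909). Matn2 (matrilin 2) was at 9.06, 27.9 and 33.6 CPM in WT and 16.6, 14.9 and 18.6 CPM in Tumor (-0.58 ± 0.51 SE, edgeR adjusted p = 0.475).

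Fn1, which cells assemble into fibrils through integrins, was at 48.7, 109 and 131 CPM in WT, 110.5, 48.7 and 40.2 in ITF1, ITM and Rel, 111, 91.7 and 93.0 in Lyso and 1220.0, 1083 and 1045 CPM in Tumor. Every Tumor library was far above all cultured ones, and the log2 fold changes were 3.51 ± 0.39 against WT, 4.07 ± 0.40 against Relapsed and 3.50 ± 0.39 against Lyso (SE, edgeR adjusted p = 6.36e-05, 1.39e-05 and 4.27e-05). The large proteoglycan Vcan (versican) was at 0.751 ± 0.65 CPM in WT and 72.5, 60.0 and 42.8 CPM in Tumor (5.93 ± 0.43 SE, edgeR adjusted p = 1.64e-06).

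All 4 basement membrane genes were expressed in culture or close to the floor there, and all 4 were called higher in Tumor than in WT (8.56% of all genes tested). Nid1 (nidogen 1, which bridges laminin and collagen networks) was at 43.6, 34.6 and 35.4 CPM in WT and 262, 233 and 198 CPM in Tumor (2.62 ± 0.20 SE, edgeR adjusted p = 1.84e-06). Lamb1 was at 22.1, 18.2 and 27.3 CPM in WT, 13.2, 18.3 and 16.0 in Lyso and 94.6, 104 and 94.6 CPM in Tumor (2.07 ± 0.19 SE, edgeR adjusted p = 1.05e-05). Neither gene overlapped between Tumor and culture. Nid2 rose from 1.60 ± 0.161 CPM in WT to 10.2 ± 1.26 CPM in Tumor (SD, n = 3, 2.75 ± 0.44 SE, edgeR adjusted p = 0.000901), with 8.45% of its exonic bases opposite another gene. Hspg2 (perlecan, a heparan sulfate proteoglycan) was at 36.8, 103 and 154 CPM in WT and 265, 293 and 210.0 CPM in Tumor (1.34 ± 0.37 SE, edgeR adjusted p = 0.0242). The call for Hspg2 was lost without WT 1, WT 2, Tumor 1 or Tumor 3, at 0.97 to 1.85 with 1 library left out.

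Fap and Thy1 are surface proteins by which fibroblasts are often recognised, and Thy1 is also found on T cells. Fap, a serine protease, was at 0, 0 and 0.295 CPM in WT and 9.75, 5.64 and 7.53 CPM in Tumor (5.00 ± 0.55 SE, edgeR adjusted p = 5.78e-05). Thy1 was at 0 counts in WT and 71.5, 42.3 and 56.7 CPM in Tumor, at least 384-fold above the WT floor (edgeR adjusted p = 1.96e-06). Neither gene's cultured values reached those of Tumor, and Fap passed the filter only through Tumor.

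Fibroblast markers outside the list were also higher in Tumor. There, all 8 of the 9 that could be tested were called higher than in WT, against 8.56% of all genes tested. Markers near 0 in culture could pass the filter through Tumor, and how many did was not counted. The remaining one, Tcf21, named after its values were seen, had 0 counts in every library. In Lyso against WT 0 of the 8 were called higher and 1 lower (2.43% and 0.576% of all genes tested). The summed level of the 9 was 16.9 to 24.9 CPM in WT, 14.2 to 23.0 in Relapsed, 9.99 to 10.6 in Lyso and 7110.0 to 10110 in Tumor. Col1a1, a chain of fibrillar collagen, was at 4.35 ± 0.484 CPM in WT and 2224 ± 383 in Tumor (SD, n = 3), and Pdgfra, a receptor of fibroblasts, at 1.28 ± 0.72 and 43.3 ± 10.9 CPM (SD, n = 3). Pdgfrb, also of pericytes, was at 11.6 ± 2.44 CPM in WT and 33.1 ± 2.97 in Tumor (SD, n = 3). The part of fibroblast RNA in the results for the 37 genes was not tested.

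Markers of other cells were lower in sum, but the fibroblast list holds collagen chains, and sums of genes with unlike levels do not rank cell types. Over the genes tested, the median log2 fold change in Tumor against WT was 8.99 for fibroblast, 4.86 for endothelial and 5.74 for myeloid markers. It was 0.77 for pericyte and smooth muscle and 0.78 for T cell markers. Of all genes tested, 8.56% were called higher there. Endothelial markers (8, of which 6 could be tested and 5 were called higher in Tumor than in WT) summed to 13.5 to 24.9 CPM in WT and 54.4 to 59.8 in Tumor, with Pecam1 at 0.357 ± 0.329 and 5.61 ± 2.78 CPM (SD, n = 3). Myeloid markers (9, with 5 of 7 tested called higher) summed to 12.5 to 29.2 CPM in WT and 47.5 to 75.3 in Tumor, with Ptprc, found on all leukocytes, at 0.141 ± 0.244 and 3.35 ± 2.20 CPM (SD, n = 3). Pericyte and smooth muscle markers (7, with 2 of 5 tested called higher) summed to 13.9 to 26.9 CPM in WT and 25.7 to 37.4 in Tumor, with Rgs5 at 0.0197 ± 0.034 and 4.01 ± 2.25 CPM (SD, n = 3). T cell markers (8, with 0 of 3 tested called) summed to 1.27 to 6.79 CPM in WT and 3.22 to 8.71 in Tumor, with Cd3e at 0 counts in both. Their part in the results was not tested either.

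Noncollagen matrix genes beyond the 37 gave a mixed picture. Of 61 listed, 45 could be tested, and 25 were called higher in Tumor than in WT and 2 were called lower (8.56% and 2.2% of all genes). The median log2 fold change was 2.21 against 0.00 over all genes. Genes near 0 in culture could pass the filter through Tumor here too, and how many did was not counted. These counts, the median and the p-values of the higher genes are therefore description only. Against Relapsed the counts were 25 and 2 (8.36% and 2.31% of all genes), and against Lyso 28 and 1 (8.78% and 4.14%). Those with the smallest p were Abi3bp (30.6 ± 1.43 CPM in Tumor, 0.059 ± 0.102 in WT, SD, n = 3), Emilin2 (39.5 ± 8.77 and 0.0393 ± 0.0681 CPM) and Spon2 (13.9 ± 3.09 and 0.0197 ± 0.034 CPM), with edgeR adjusted p = 1.56e-07, 3.45e-07 and 5.2e-06. The 2 lower genes were Ccn4, a secreted protein of the Wnt response, at 41.1 ± 14.8 CPM in WT and 7.62 ± 2.48 in Tumor (-2.48 ± 0.35 SE, edgeR adjusted p = 0.000368), and Bcan (brevican), at 14.2 ± 8.17 and 0.534 ± 0.246 CPM (-4.66 ± 0.71 SE, edgeR adjusted p = 0.000629). Laminins and related basement membrane genes of that list were called higher in 4 of 10 tested.

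The 3 Tumor libraries did not hold the 37 genes in 1 fixed ratio. Of the 36 genes with at least 10 counts in every Tumor library, Tumor 1 was the highest library for 21, Tumor 3 for 8 and Tumor 4 for 7. Relative to the mean of the 3, Eln was at 0.595, 0.539 and 1.87 in Tumor 1, 3 and 4, Cilp at 0.662, 0.509 and 1.83 and Mfap4 at 0.467, 0.887 and 1.65, so these 3 were highest in Tumor 4. In the other direction, Lox was at 1.52, 1.06 and 0.416, Tnc at 1.51, 0.808 and 0.683 and Thbs2 at 1.498, 0.859 and 0.643, highest in Tumor 1. Dcn (coefficient of variation 5.02%), Lamb1 (5.35%) and Ogn (6.85%) varied least, and Eln (75.0%) and Cilp (72.2%) most. With 3 libraries of 1 group there is no test of these patterns. The fibroblast markers summed to 10110, 8224 and 7110.0 CPM in Tumor 1, 3 and 4, and their part in the spread was not tested.

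**Figure D4:**
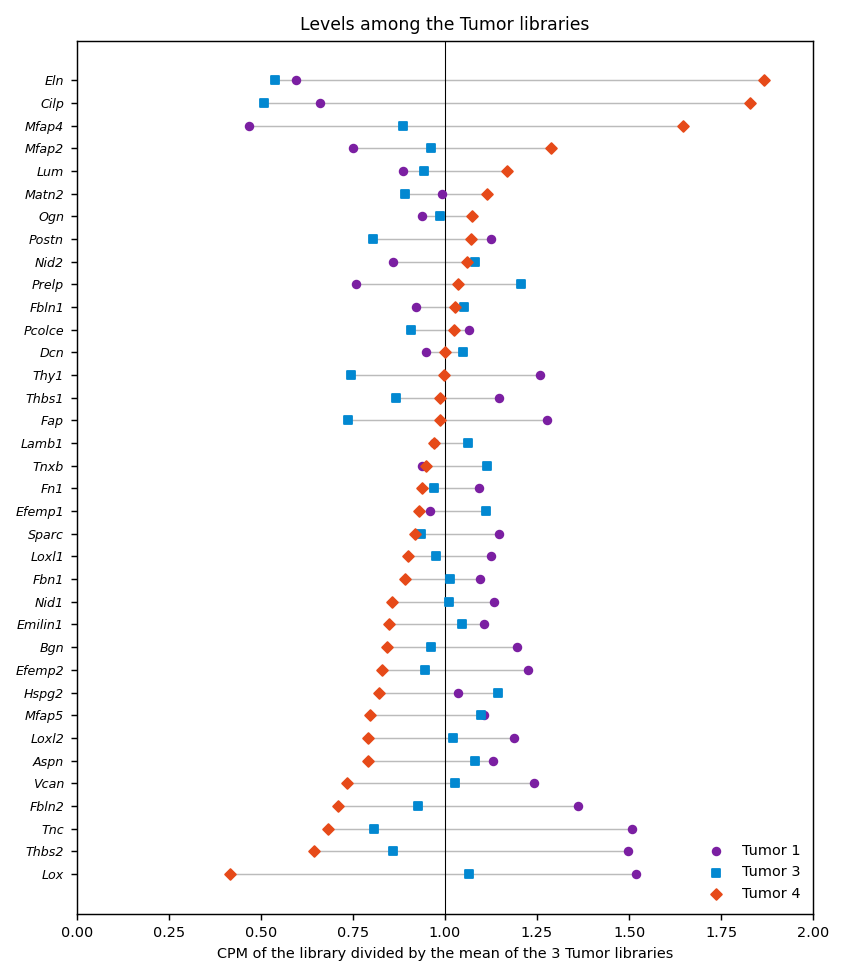
CPM of each Tumor library divided by the mean of the 3, for the genes with at least 10 counts in each Tumor library, ordered by the value in Tumor 4. Eln, Cilp and Mfap4 at the top are highest in Tumor 4, and Lox, Thbs2 and Tnc at the bottom are highest in Tumor 1.

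Between cells incubated with the granules and untreated cells, the calls among these genes were too few to set apart from the shares over all genes. In Lyso against WT, 1 of the 37 was called higher and 1 lower, where 2.43% and 0.576% of all genes were. The median log2 fold change was -0.11 (0.00 over all genes). Both calls were among the 19 genes that passed the filter with the cultured libraries alone, whose median was -0.21, though Thy1 passed it only through Lyso. The other 18 are low in culture and could hardly be called. At an unadjusted p under 0.05 stood 8 of the 37, or 21.6%, near the 18.7% of all genes. Every Lyso library was above every WT library for 6 genes (15.8% of all genes) and below for 1 (11.6%). The gene called higher was Thy1, at 0 counts in WT, 0, 0.0599 and 0 CPM in ITF1, ITM and Rel, and 4.05, 2.24 and 1.94 CPM in Lyso (43, 24 and 24 counts). That is at least 18.99-fold above the WT floor (edgeR adjusted p = 0.00205), and without WT 3, the deep WT library, the adjusted p was 0.0548 and the call was lost. Selection through Lyso fixed the direction of Thy1 against WT, so its p-values here are given as description only. Beside it, T cell markers summed to 9.80 to 10.5 CPM in Lyso against 1.27 to 6.79 in WT, and 6 of the 8 were in every Lyso library above every WT library. Ptprc was at 2.95 ± 0.726 CPM and Cd3e at 5, 7 and 1 counts in Lyso, and Cd8a and Cd8b1, coreceptors of T cells named after their values were seen, were at 1.85 ± 0.563 and 1.28 ± 0.0431 CPM (SD, n = 3) and at 0 counts in WT. The part of T cell RNA in the value of Thy1 was not tested, and Fap, the other fibroblast surface gene, had 4 or 5 counts per Lyso library.

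Postn was the gene called lower, at 3.58, 2.98 and 2.51 CPM in Lyso against 5.09, 13.5 and 17.5 in WT (-2.17 ± 0.35 SE, edgeR adjusted p = 0.0032). All Lyso values lie under all WT values, with WT 1 the nearest, and without WT 3 the log2 fold change was -1.68 and the call was lost (edgeR adjusted p = 0.0594). In Tumor the same gene was higher than in WT. Thbs1 was at 74.1, 76.8 and 81.8 CPM in Lyso, above every WT library, while the WT libraries lay far apart, and its log2 fold change of 1.84 ± 0.59 (SE) was not called (edgeR adjusted p = 0.108). Without WT 3 it was 3.09 and called (edgeR adjusted p = 0.0418). Sparc (-0.86 ± 0.34 SE, edgeR adjusted p = 0.191) was called lower at -1.20 without WT 1, and Prelp (1.20 ± 0.52 SE, edgeR adjusted p = 0.235) was not called with any library left out.

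**Figure D5:**
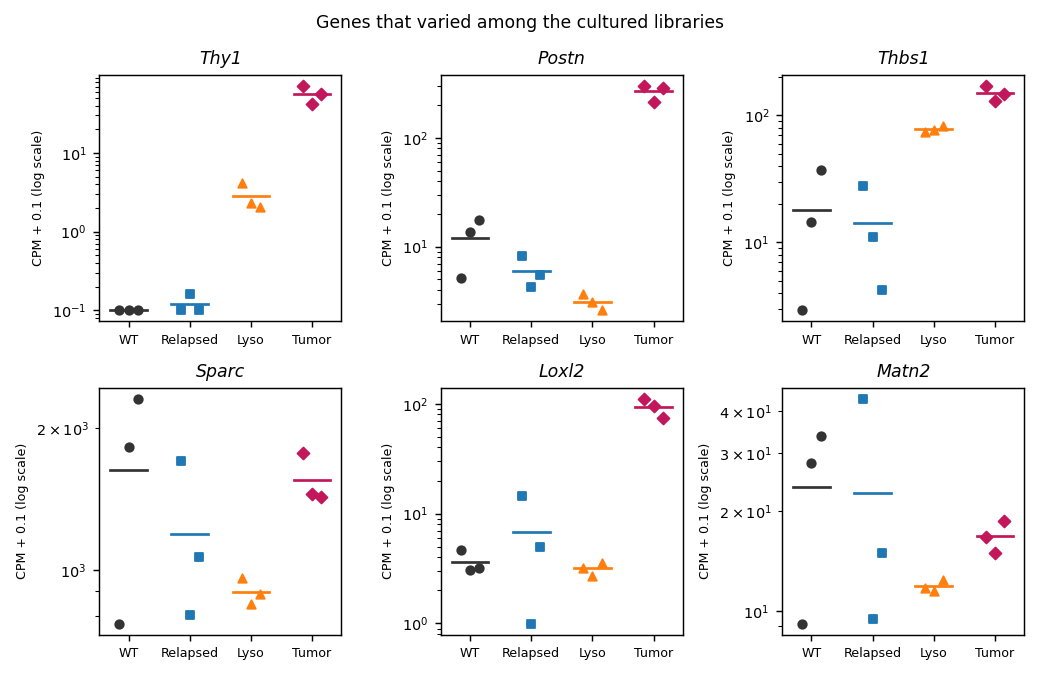
Normalized read counts (CPM + 0.1, log axis) of 6 genes in each library, 1 point per library, with a line at the mean of each group of 3; the points of Relapsed are ITF1, ITM and Rel from left to right. Thy1 is near 0 in WT and Relapsed and between 1.94 and 4.05 CPM in Lyso, Postn is lowest in Lyso, and Loxl2 and Matn2 are highest among the relapsed lines in ITF1.

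Between the relapsed lines and WT, 0 of the 37 genes were called in either direction by edgeR, where 0.0134% of all genes were called higher and 0.0268% lower, and 2 of the 37 (5.41%) stood at an unadjusted p under 0.05, against 11% of all genes. For 0 of the 37 did the 3 lines lie wholly above WT (6.43% of all genes) or wholly below (4.19%). These counts include the 18 genes that passed the filter only through Tumor, which are low in culture. The lines differed among themselves for genes that culture holds. ITF1 was the highest line for 7 of the 14 genes found in all cultured libraries and ITM the lowest for 8. Matn2 was at 43.5 CPM in ITF1 against 9.35 in ITM and 14.9 in Rel, and Thbs1 at 27.6, 11.0 and 4.15 CPM in ITF1, ITM and Rel. Postn was at 8.06, 4.13 and 5.42 CPM, a log2 fold change of -1.22 ± 0.32 (SE) against WT (edgeR adjusted p = 0.188), and it was called lower without WT 1, at -1.48 (edgeR adjusted p = 0.0398), and by DESeq2. Among the WT libraries, WT 1 was the lowest for 8 of these 14 genes and WT 3 the highest for 8, as for Sparc, Postn, Thbs1, Matn2, Fn1 and Hspg2.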

How the data were processed

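Raw counts per gene were deposited by the authors for all 12 libraries. Per the labels' processing notes the tools named are fastp 0.19.6, STAR 2.7.1a and DESeq2 1.24.0, with the builds GRCm38 and mm10; the strand setting is not given in the sources used here. Counts were tested with edgeR 4.0.16 in R 4.3.3 (filterByExpr, TMM, quasi-likelihood test, no block), with 1 fit over all 12 libraries, 5 comparisons and Benjamini-Hochberg adjustment over 14924 genes. A gene was called where its adjusted p was below 0.05 and it changed by more than 1 on the log2 scale. Totals were 1667398 to 16402629 counts, and floors of 3 counts and exact intervals cover counting error only. Positions came from GRCm38.

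The 37 genes and the other lists were chosen with earlier results of these data known. All 37 could be named, with at most 3 genes by smallest p in each direction from each other list and some fixed markers. The test was tested on simulated data (dispersion 0.05, 14540 genes, Tumor against WT), where it called 95 of 106 genes changed by 2 and 70 of 94 changed by 1.5 on the log2 scale, with 7 unchanged genes called. The simulation gave each gene its mean level over all libraries and the same dispersion in every group. It therefore does not describe genes near 0 in culture or groups whose libraries lie far apart. Alternatives covered scaling, DESeq2 1.42.0, filters, the replicate block, call rules, thinning to the shallowest library and leaving out libraries.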

Additional observations from a re-analysis of the deposited data

How the results depend on the processing

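The calls for Tumor depended most on the filter. With at least 10 counts required in every library compared, 5 of the 10 genes left to test were called higher than in WT, 14 of 17 higher than in Relapsed and 11 of 16 higher than in Lyso, and in Lyso against WT 0 of 10 were called higher and 0 lower. Against WT this also removes genes that culture holds, since the shallow WT 1 has 9 counts of Postn, 8 of Loxl2 and 5 each of Thbs1 and Prelp. Shares of all genes are not given for this filter or the alternatives below, so the numbers of calls have no background beside them. With 1 library left out the counts were 30 to 32 higher than in WT, 33 to 34 than in Relapsed and 31 to 32 than in Lyso, and 0 to 0 lower in each. In Lyso against WT 1 to 1 was higher and 0 to 2 lower, and without WT 3 the gene called higher was Thbs1 in place of Thy1. Without a filter 3 genes were higher and 2 lower there, with only the groups compared 2 were higher, after thinning 2 were higher and 0 lower, with a test against a log2 fold change of 1 0 were lower, and with WT 3 as the only control 2 were lower. In Relapsed against WT 1 gene was lower with DESeq2 and 1 without a filter, and 0 to 0 were higher and 0 to 1 lower with 1 library left out. No direction of a called gene reversed under these alternatives. Where not stated, the cause was not tested. Against WT 3 as the only control, Hspg2 (0.71) and Efemp2 (0.74) were no longer called higher in Tumor. At the depth of WT 1, a gene under 1.70 CPM could not be told from 0.

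The replicate numbers of the labels did not pair the libraries: deviations of same-numbered libraries correlated at -0.01 to 0.083. With the replicate block 31 genes were higher in Tumor than in WT and 31 than in Lyso, and 1 was higher and 1 lower in Lyso than in WT.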
